A study of Mus musculus with 3 samples.

Results

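Long inserts were compared between a 24-30 nt and a 19-30 nt small RNA library of fully grown mouse oocytes, which are 2 of the 3 libraries of the series. Of the 24-30 nt library, those 26 nt reads were used that showed no linker, so that their inserts were taken as 23 nt or more, with no upper limit, although a missed linker leaves some shorter inserts among them. Of the 19-30 nt library, those 36 nt reads were used whose insert was sized at 24 to 30 nt. These are called sized reads below. Both libraries came from total RNA isolated with Trizol from fully grown oocytes, the large oocytes that fill the follicle before ovulation, and they differed in the window cut from the polyacrylamide gel. All females had been given PMSG, a hormone preparation that makes follicles grow, at 5 IU, and were killed 48 hours later. The windows were processed independently and sequenced on an Illumina 1G instrument. There was 1 library a side and no test was possible. Gel window, library preparation, sequencing run and read length cannot be told apart. The strain, age and number of the females and the number of oocytes were not given in the labels.

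Several kinds of RNA have lengths within this range. piRNAs are bound by PIWI proteins, silence transposons in germ cells, mostly begin with U and in mammals are longer than microRNAs. Where transcripts of both strands are cut in the ping-pong cycle, partner piRNAs overlap at their 5' ends by a fixed number of bases, and one of them tends to carry A at the position opposite the first U of the other. Fragments of mature tRNAs, rRNAs and snoRNAs, which decode mRNA, build the ribosome and guide the modification of rRNA, lie in the same range. Reads that matched coding, pseudogene or long non-coding transcripts on either strand and no structural RNA are called piRNA-like here, whatever their first base. This describes where they matched and does not show that each one is a piRNA.

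The leading starts of the fragments that set the libraries apart, or that they shared, are shown first, with T standing for U as in the reads, and with the first base in capitals. They are the first 20 bases, the part that was matched.
tRNA-Glu-CTC: Tccctggtggtctagtggtt
mt-Ts2: Aagaaagattgcaagaactg
18S rRNA locus: Ggagcgctgagaagacggtc
Snord2: Ctgaaatgaagagaatactc
Snord85: Ggtcgatgatgagagctttg
Rny3: Ggttggtccgagagtagtgg
The tRNA-Glu-CTC start had 65745 reads in the 24-30 nt library, against 367 for the 19-30 nt library, and lay at chr4:107320103-107320122 on the minus strand (GRCm38), in an exon of Yipf1 that holds the first bases of this tRNA antisense to the gene. The mt-Ts2 start, the first base of a mitochondrial serine tRNA, had 3010 reads, against 45 for the 19-30 nt library. The 18S start had 415 reads in the 24-30 nt library, against 0 for the 19-30 nt library, and lay at chr17:39848111-39848130 on the plus strand. The Snord2 start, at base 37 of that C/D box snoRNA on chromosome 16, had 1504 reads, against 52. The Snord85 start, at base 42 on chromosome 4, had 415 reads, against 25. The Rny3 start, at base 1 of a Y RNA on chromosome 6, had 1051 reads, against 7.

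The most frequent piRNA-like starts with at most 5 places among annotated exons, the leading 3 of each library, are shown with bases 1 and 10 in capitals. With 3 to 5 places each they belonged to several genes at once, so the genes named beside them are not independent.
Start shared by Cdk14, Gm45033, Vmn1r55, Vmn1r81 and Vmn2r114: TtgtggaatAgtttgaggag
Start shared by Bzw2, Gm15298, Gm43622, Gm44873 and Ppp2r5a: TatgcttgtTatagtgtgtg
Start shared by D10Wsu102e, Gm42860, Noct and Slc38a6: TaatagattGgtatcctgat
Start shared by Gm15298, Gm43622 and Ppp2r5a: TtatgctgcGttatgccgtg
The first had 1238 reads in the 24-30 nt library, where it ranked 1, and 63 for the 19-30 nt library, where it ranked 3. The second had 905 reads, against 29, with ranks 2 and 14. The third had 615 reads, against 155, with ranks 3 and 1. The fourth had 100 reads, against 129, with ranks 57 and 2. These are counts and not levels, since the 24-30 nt library had 586494 matched long reads, against 27512. The most frequent start with a single place within D10Wsu102e, a gene of chromosome 10, was Ttgtgaaattgtttgtgcag on the sense strand, with 157 reads in the 24-30 nt library and 14 for the 19-30 nt library.

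The 24-30 nt library held 1484509 reads, of which 1361269 were usable long reads, and the 19-30 nt library 943811, of which 124377 were. In the 24-30 nt library 586494 of these matched (43.1%, 95% Wilson interval 43.0 to 43.2), against 27512 for the 19-30 nt library (22.1%, 21.9 to 22.4). All shares below are of matched long reads unless said otherwise, and levels are RPM, reads per 1000000 of them. Intervals are at 95% and cover counting error only, since reads made by PCR are not independent molecules, and a count of 0 allows up to 5.12 RPM in the 24-30 nt and 109 RPM for the 19-30 nt library.

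Fragments of rRNA and tRNA made up most of the matched long reads of the 24-30 nt library, whereas those of the 19-30 nt library were mostly piRNA-like. Together rRNA and tRNA made up 62.7% of the 24-30 nt library (62.6 to 62.8), against 7.43% for the 19-30 nt library (7.13 to 7.75). Reads of rRNA made up 38.6% (38.5 to 38.8), against 3.51% (3.30 to 3.73), a ratio of 11 (10.3 to 11.7). Reads of tRNA made up 24.1% (23.9 to 24.2), against 3.92% (3.70 to 4.16), a ratio of 6.13 (5.78 to 6.52). The piRNA-like share was 31.3% (31.2 to 31.4), against 79.8% (79.3 to 80.3), a ratio of 0.392 (0.387 to 0.398). MicroRNA reads made up 3.33% (3.29 to 3.38), against 10.4% (10 to 10.7). The snoRNA share was 1.73% (1.69 to 1.76), against 1.72% (1.57 to 1.88), a ratio of 1.01 with an interval from 0.918 to 1.11. Among reads outside tRNA and rRNA the piRNA-like shares lay closer together, at 83.9% (83.8 to 84.1), against 86.2% (85.8 to 86.6). Usable long reads include unmatched ones, and in the 19-30 nt library 58011 of 96865 unmatched reads (59.9%) measured 28 nt. Of all usable long reads, rRNA made up 16.65%, against 0.776%, tRNA 10.4%, against 0.868%, and piRNA-like reads 13.5%, against 17.6%. The ratios of these shares were 21.5 for rRNA, 11.9 for tRNA and 0.764 for piRNA-like reads. Over distinct starts the ratios were 2.78, 1.75 and 0.936, so the sizes moved by over 1.5 times and the directions did not turn. Outside tRNA and rRNA the snoRNA share was 4.63%, against 1.85%, a ratio of 2.5 (2.28 to 2.75).

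**Figure D1:**
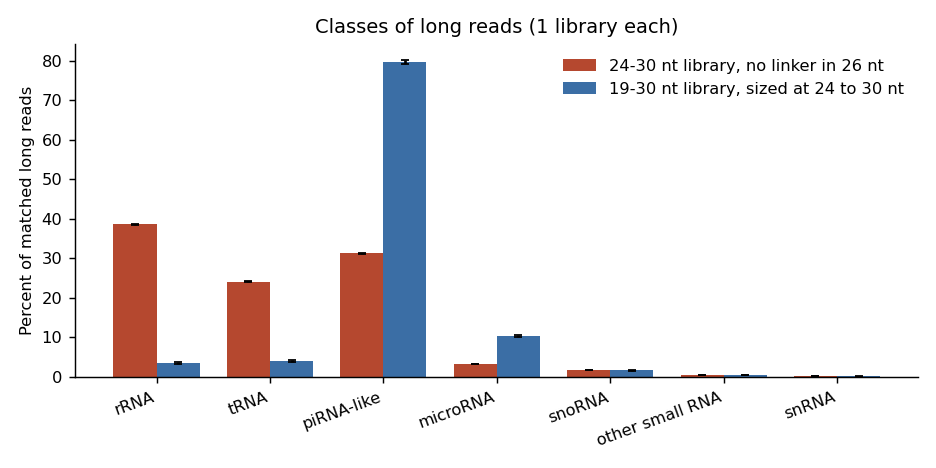
Percent of matched long reads in each class, with 24-30 nt bars left and 19-30 nt bars right, and error bars for 95% Wilson intervals of counting error in 1 library each. The rRNA bars stand at 38.6% and 3.51%, the tRNA bars at 24.1% and 3.92%, and the piRNA-like bars at 31.3% and 79.8%.

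The rRNA difference lay mainly in one fragment of the 5.8S rRNA, a short RNA of the large ribosomal subunit. The 5.8S rRNA had 194079 reads in the 24-30 nt library, against 573 for the 19-30 nt library, or 330914 RPM, against 20827 RPM, a ratio of 15.9 (14.6 to 17.3). In the 24-30 nt library 144202 of its reads (74.3%) started at base 124, against 1 read of the 19-30 nt library. A fragment from that base to the end of the 157 nt reference measures 34 nt, above both gel windows. Starts at bases 121 to 126 held 88.3% of its reads in the 24-30 nt library, against 0.175% for the 19-30 nt library. Starts at bases 127 to 133, which leave 31 to 25 nt to the end, held 6.10% in the 24-30 nt library, against 68.4% for the 19-30 nt library. Those at bases 1 to 3 held 4.92%, against 29.5%, and base 2 was the leading single start of the 19-30 nt library, with 149 reads. The reads of the 19-30 nt library in which no linker was found, left out of the comparison, held 5285 reads of the 5.8S rRNA, of which 4382 (82.9%) started at base 124. When the 36 nt reads were cut to 26 nt and taken on the same terms as the 24-30 nt library, the rRNA ratio was 5.29 and the tRNA ratio 4.81. On equal terms the rRNA ratio was thus less than its value above by over 1.5 times, and both classes were still higher in the 24-30 nt library.

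The further stretches of cytoplasmic rRNA given here were also higher in the 24-30 nt library, while mitochondrial rRNA as a whole did not differ beyond counting error. The 5' end of the 28S rRNA had 9790 reads, against 44, a ratio of 10.4 (7.77 to 14.4), and 93.7% of the 24-30 nt reads started at base 1, against 59.1% of the 19-30 nt reads. The 18S rRNA locus, a stretch of chromosome 17 under Gm26917, Gm42418 and CT010467.1, had 17201 reads, against 183, a ratio of 4.41 (3.81 to 5.13). Its reads were spread out: the most frequent start held 2.41% of them in the 24-30 nt library. A stretch of Lars2 taken as 28S-like had 1860 reads, against 24.5, a ratio of 3.56 (2.40 to 5.54). Mitochondrial rRNA had 0.217% of reads (0.205 to 0.229), against 0.20% (0.154 to 0.260), a ratio of 1.09 (0.829 to 1.45). Within it, the 12S rRNA mt-Rnr1 had 426 reads, against 5, a ratio of 4.0 (1.70 to 12.4), and the 16S rRNA mt-Rnr2 had 865 reads, against 51, a ratio of 0.796 (0.60 to 1.08). In mt-Rnr2, 33 reads of the 24-30 nt library (3.86%) started at base 1, against 37 for the 19-30 nt library (74.0%).

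Fragments of nuclear tRNA made up 22.3% of the 24-30 nt library (22.2 to 22.4), against 3.4% for the 19-30 nt library (3.19 to 3.62), a ratio of 6.55 (6.14 to 6.99). The glutamate tRNA tRNA-Glu-CTC led in both, with 68212 reads, against 380, a ratio of 8.42 (7.61 to 9.34). The lysine tRNA tRNA-Lys-CTT had 14597 reads, against 43.5, a ratio of 15.7 (11.7 to 21.7). The glycine tRNA tRNA-Gly-GCC had 13094 reads, against 163, a ratio of 3.77 (3.23 to 4.43). The glycine tRNA gene n-TGccc7, at chr17:25875088-25875158 within an exon of Mettl26, had 8423 reads, against 37, a ratio of 10.7 (7.74 to 15.2). The aspartate tRNA tRNA-Asp-GTC differed least of these, with 4185 reads, against 157, a ratio of 1.25 (1.07 to 1.48). The initiator methionine tRNA tRNA-iMet-CAT had 1934 reads, against 6, a ratio of 15.1 (6.93 to 41.3). The valine tRNA tRNA-Val-TAC had 1601 reads, against 0, and with the 0 of the 19-30 nt library set to 3 counts its ratio was 25. Of the 25 nuclear tRNAs that had reads, 21 reached 100 reads, and 14 of these were higher past 2-fold and 0 lower. Since 13 of the 25 had been added after abundant unmatched reads were seen, this count describes the tRNAs listed and supports nothing by itself. Over all 476 genes of that depth, of every kind of RNA, 62 (13.0%) were higher past 2-fold and 221 (46.4%) lower, with a median ratio of 0.515.

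Most of these fragments began at the 5' end of the tRNA, and the tRNAs differed in how far the libraries shared this. Starts at bases 1 to 3 held 92.6% of nuclear tRNA reads in the 24-30 nt library (92.4 to 92.7), against 71.5% for the 19-30 nt library (68.5 to 74.3). For tRNA-Glu-CTC base 1 held 96.4% of reads, against 96.6%, and for tRNA-Gly-GCC 94.1%, against 94.5%. For tRNA-Lys-CTT base 1 held 75.8% of reads, against 18.4%, and base 47, in the 3' part, 16%, against 43.7%. For tRNA-Lys-TTT base 1 held 76.4%, against 8.55%, and base 47 held 18.1%, against 54.7%. For tRNA-Asp-GTC base 1 held 57.3%, against 24.2%, and base 51 held 0.335%, against 33.8%. In the 19-30 nt library the sized tRNA reads piled up at the upper end of the window: 540 of 1079 (50%) measured 30 nt. For tRNA-Glu-CTC 239 of the 380 sized reads measured 30 nt, and 1995 more of its reads had no linker, of which 1978 started at base 1. For tRNA-Gly-GCC, reads shared with other tRNAs included, the numbers were 103 of 165 sized reads and 966 reads without a linker.

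**Figure D2:**
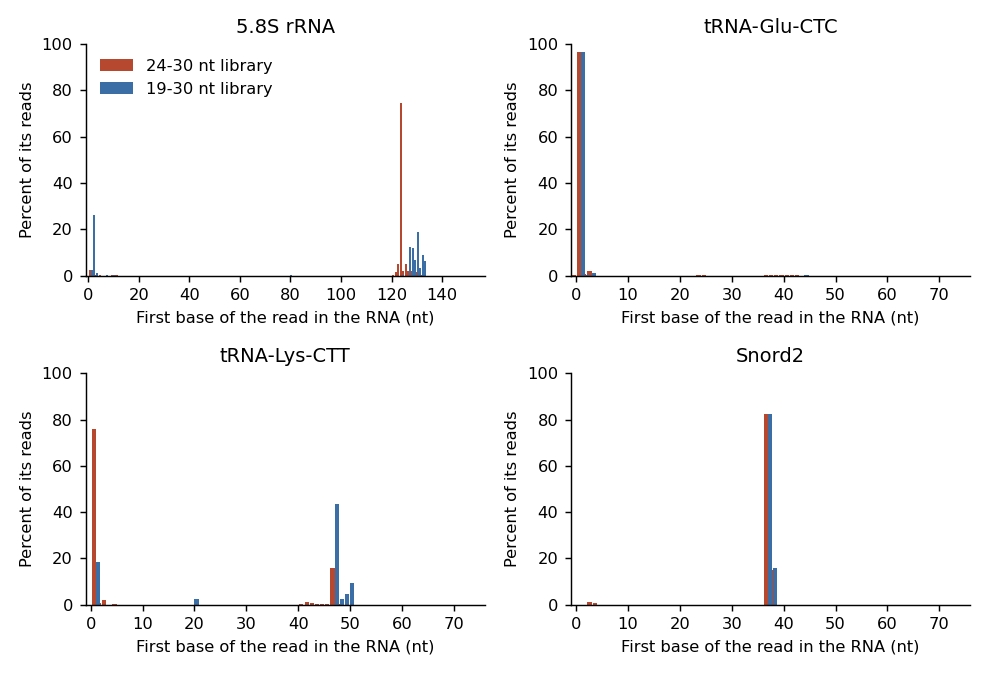
First base of each read within 4 RNAs, as a percent of that RNA's long reads in the 24-30 nt (left bar) and 19-30 nt library (right bar), for starts with at least 10 reads. The 5.8S reads start mainly at base 124 in the 24-30 nt library and mainly after it in the 19-30 nt library, where base 2 is the leading single start. tRNA-Glu-CTC and Snord2 share their start, and tRNA-Lys-CTT has base 1 in the 24-30 nt and base 47 in the 19-30 nt library as its leading start.

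Mitochondrial tRNA was also higher, at 1.77% of reads (1.74 to 1.81), against 0.520% (0.441 to 0.612), a ratio of 3.41 (2.89 to 4.05). Of its 22 genes 14 reached 100 reads, and 12 of these were higher past 2-fold and 0 lower, where over all 476 genes 13.0% were higher and 46.4% lower. The leading gene mt-Ts2 had 3138 reads, against 45, a ratio of 3.27 (2.44 to 4.49), and the alanine tRNA mt-Ta had 1365, against 15, a ratio of 4.27 (2.58 to 7.65). The proline tRNA mt-Tp stood apart, with 1208 reads, against 50, a ratio of 1.13 (0.854 to 1.54). The glycine tRNA mt-Tg had 1027 reads, against 2, a ratio of 24.1 with an interval from 6.65 to 199. Starts at bases 1 to 3 held 50% of mitochondrial tRNA reads (49.1 to 51.0), against 55.9% (47.8 to 63.8).

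The leading C/D box snoRNA fragments had the same main start in both libraries, and their levels were mixed. The C/D box snoRNAs named Snord, which guide the methylation of rRNA, held 0.898% of reads (0.874 to 0.922), against 0.912% (0.807 to 1.03). The H/ACA box snoRNAs named Snora, which guide pseudouridylation, held 0.0157% (0.0128 to 0.0193), against 0.0370% (0.0202 to 0.0677), from 92.2 and 10.2 weighted reads. Snord2 led with 1823 reads, against 63, a ratio of 1.36 (1.06 to 1.77), and its base 37 held 82.5% of reads in both libraries. Of its 63 sized reads, 51 measured 29 nt and 11 measured 28 nt. Snord85 had 537 reads, against 33, a ratio of 0.763 (0.537 to 1.12), and base 42 held 77.3%, against 75.8%. Snord118, the U8 snoRNA of rRNA processing, had 204 reads, against 69, a ratio of 0.139 (0.105 to 0.185), with base 48 at 93.6%, against 81.2%. At the other end, the snoRNA gene Gm23262 had 750 reads, against 1, a ratio of 35.2 with an interval from 6.30 to 1391. Of 17 snoRNA genes with at least 100 reads, 3 were higher past 2-fold and 2 lower, Snord118 and Gm26109, where over all 476 genes 13.0% were higher and 46.4% lower. Cutting the 36 nt reads to 26 nt gave a snoRNA ratio of 2.27, and sizing the 19-30 nt inserts at 27 to 30 nt gave 0.531, so the direction for the class rests on the lengths that are compared.

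Among other small RNAs, the Y RNAs, which bind Ro proteins, were higher in the 24-30 nt library. Rny3 had 1113 reads, against 7, a ratio of 7.46 (3.61 to 18.6), with 94.4% of reads at base 1, against 100%. Rny1 had 493 weighted reads, against 5.25, a ratio of 4.40 (1.91 to 13.2). Rmrp, the RNA of RNase MRP, had 490 reads, against 0, with 96.7% of its reads at base 5. With the 0 set to 3 counts its ratio was 7.66, and its interval began at 6.21. The vault RNA Vaultrc5 had 31 reads, against 5, a ratio of 0.291 (0.112 to 0.958). The 7SL RNAs Rn7s1 and Rn7s2 and the 7SK RNA Rn7sk, abundant RNAs of protein targeting and of transcription control, had 96.1 and 34.8 weighted reads, against 1.33 and 0.20. The 7SL ratio was 3.38 with an interval from 0.716 to 61.7, and none is given for 7SK, with less than 1 read in the 19-30 nt library.

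MicroRNA genes differed widely between the libraries, and a pair with long mature products is shown beside 3 with shorter ones. The mature sequences are from RefSeq (GRCm38.p6) with the seed, bases 2 to 8, in capitals, and no seed is shared among the 5.
mmu-miR-541-5p: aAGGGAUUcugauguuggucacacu
mmu-miR-351-5p: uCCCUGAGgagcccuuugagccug
mmu-miR-20a-5p: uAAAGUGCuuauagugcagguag
mmu-miR-30e-5p: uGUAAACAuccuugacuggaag
mmu-miR-200c-3p: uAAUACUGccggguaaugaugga
Mir541, whose 5p product of 25 nt lies at chr12:109742422-109742446, had 3811 reads in the 24-30 nt library, against 24 for the 19-30 nt library, a ratio of 7.45 (5.00 to 11.6). Mir351, with a product of 24 nt, had 555 reads, against 33, a ratio of 0.789 (0.555 to 1.16). Mir20a, with 23 nt, had 535 reads, against 285, a ratio of 0.0881 (0.0761 to 0.102). Mir30e, with 22 nt, had 514, against 230, a ratio of 0.105 (0.0896 to 0.123). Mir200c, with 23 nt, had 4, against 161, a ratio of 0.00117, with an interval from 0.000314 to 0.00304. Of the 285 sized reads of Mir20a, 210 measured 24 nt, and its reads of 20 to 23 nt numbered 1900. These 5 do not stand for all microRNAs. Mirlet7b had 1206 reads, against 59, a ratio of 0.959 (0.738 to 1.27). The annotated entries Gm23935, Gm24245 and Gm24270 had equal counts of 573 weighted reads, against 1.7, a ratio of 15.8 (3.97 to 173). Of 46 microRNAs with at least 100 reads, these entries counted singly, 15 were higher past 2-fold and 19 lower. Over all 476 genes 13.0% were higher and 46.4% lower. Among all microRNA reads of the 19-30 nt library sized at 24 to 30 nt, 67.3% measured 24 nt and 21.3% measured 25 nt. The first base was U in 39.9% of microRNA reads (39.2 to 40.6), against 71.5% (69.9 to 73.2), and A in 40.6%, against 21.8%. The leading start of Mir541, which begins with A, held 3795 of the 19552 microRNA reads of the 24-30 nt library, so other starts gave A-first reads as well.

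Most piRNA-like reads began with U. It was the first base of 75.5% of them in the 24-30 nt library (75.3 to 75.7), against 70.6% for the 19-30 nt library (70 to 71.2), a difference of 4.96 percentage points (4.33 to 5.60). A followed with 13.4%, against 19.0%. This order of the libraries did not hold throughout. Among piRNA-like reads with 1 place among annotated exons U was first in 59.2% (58.7 to 59.8), against 64.3% (62.8 to 65.8), and with distinct starts counted once the difference was -9.43 points. With inserts of 27 to 30 nt in the 19-30 nt library it was -2.19 points, and among starts found in both libraries, where U stood first in 84.1% of reads, against 78.0%, it was 6.12 points. Of the distinct piRNA-like starts 3713 were shared, which is 10.6% of the 35093 of the 24-30 nt library and 42.0% of the 8832 of the 19-30 nt library, and they held 66.2% of piRNA-like reads in the 24-30 nt library, against 70.1% for the 19-30 nt library.

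The length of the insert went with both the first base and the fit to the transcript. In the 19-30 nt library 6507 of 21962 sized piRNA-like reads (29.6%) measured 24 nt, and 2880 (13.1%) measured 29 nt. U was first in 61.6% of those of 24 nt, 66.0% at 25 nt, 72.2% at 26 nt, 67.4% at 27 nt, 76.4% at 28 nt, 84.8% at 29 nt and 80.7% at 30 nt. Base 23, which lies beyond the matched 20 bases, was the base of the transcript in 45.5% of reads with 1 place at 24 nt, 47.0% at 25 nt and 65.9% at 26 nt. At 27 to 30 nt it was so in 83.4% to 88.3%. In the 24-30 nt library base 23 was that of the transcript in 84.7% of such reads. Over all sizes base 23 agreed in 60.7% of these reads of the 19-30 nt library. The values of other classes there were 94.7% for rRNA, 94% for snoRNA, 71.4% for microRNA and 57.4% for tRNA, and the part of the sequencing cycle was not tested.

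**Figure D3:**
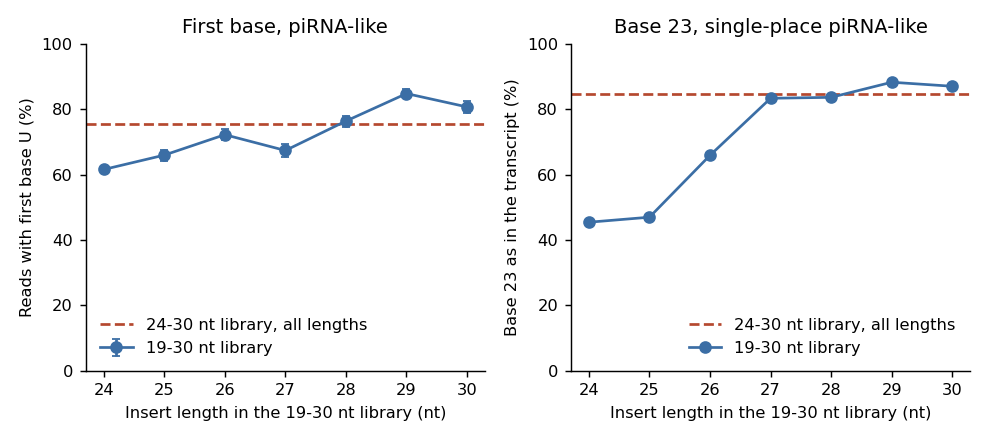
Share of piRNA-like reads with first base U (left, with 95% Wilson intervals) and share of single-place piRNA-like reads whose base 23 was that of the transcript (right) by insert length in the 19-30 nt library (points), with the value of the 24-30 nt library, whose lengths above 22 nt were not measured, as a dashed line. The U share is 61.6% at 24 nt and 84.8% at 29 nt, and base 23 fits in 45.5% of reads at 24 nt and in 83.4% to 88.3% at 27 to 30 nt.

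The base at position 10, opposite the first base of a ping-pong partner, was A in 54.7% of piRNA-like reads of the 24-30 nt library (54.5 to 55.0), against 44.9% for the 19-30 nt library (44.2 to 45.5). Among reads that did not begin with U the share was 56.6%, against 43.6%, and among those that did it was 54.1%, against 45.4%, so the order of these groups differed between the libraries. Sense reads with 1 place had A at base 10 in 36.1%, against 32%, and those with over 100 places in 68.7%, against 55.7%. Antisense reads with 1 place had it in 54.2%, against 44.8%, and those with over 100 places in 67.3%, against 55.2%, a smaller contrast by places.

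The antisense share of piRNA-like reads was the same within counting error, at 46.0% (45.8 to 46.2), against 46.0% (45.4 to 46.7), a difference of -0.00326 points with an interval from -0.701 to 0.694. Over distinct starts, each counted once, the difference was -12.9 points. By kind of gene it differed in both directions. Reads of pseudogenes were antisense in 65.3% (64.8 to 65.8), against 59.0% (57.5 to 60.4). Reads of coding genes were antisense in 40.8% (40.4 to 41.1), against 45.0% (44.0 to 45.9), and reads of long non-coding genes in 40.9% (40.6 to 41.3), against 40.3% (39.2 to 41.4). Reads with 1 place were antisense in 25.9% (25.5 to 26.4), against 33.8% (32.3 to 35.3), and those with 11 to 100 places in 53.1% (52.7 to 53.4), against 50.4% (49.4 to 51.4). Antisense places had more U-first reads than sense places in both, 80.7% and 71.1% in the 24-30 nt library, against 73.8% and 67.8% for the 19-30 nt library.

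Gene by gene, the strand was kept between the libraries. In 188 genes with at least 100 piRNA-like reads in one library and 20 in both, the antisense shares followed each other with a Pearson r of 0.973 and a Spearman rho of 0.966 across genes, which share reads of several places and are not independent. In 183 of the 188 the same strand held most reads, and the median absolute difference was 4.71 points. Over 90% sense were 36 genes, against 24, and over 90% antisense were 17, against 9, so fewer genes were of 1 strand in the 19-30 nt library. That library had fewer reads, and the part of depth was not tested. U was the leading first base with over 50% in all 188 in both, with medians of 81.6%, against 75.3%. The olfactory receptor gene Olfr1152 had the largest difference in strand, with 38% antisense, against 12.6% of 23.2 weighted reads. The pseudogene Gm14654 had 1.96% antisense, against 21.1%, and the long non-coding gene Gm38194 31.6% of 799 reads, against 13.4% of 95.7. The largest difference in first base was in Gm18310, with 83.1% U, against 59.9%. Gm49069, E330020D12Rik and Gm47587 followed, with 79.6%, 91.4% and 79.8%, against 56.6%, 69% and 57.6%.

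**Figure D4:**
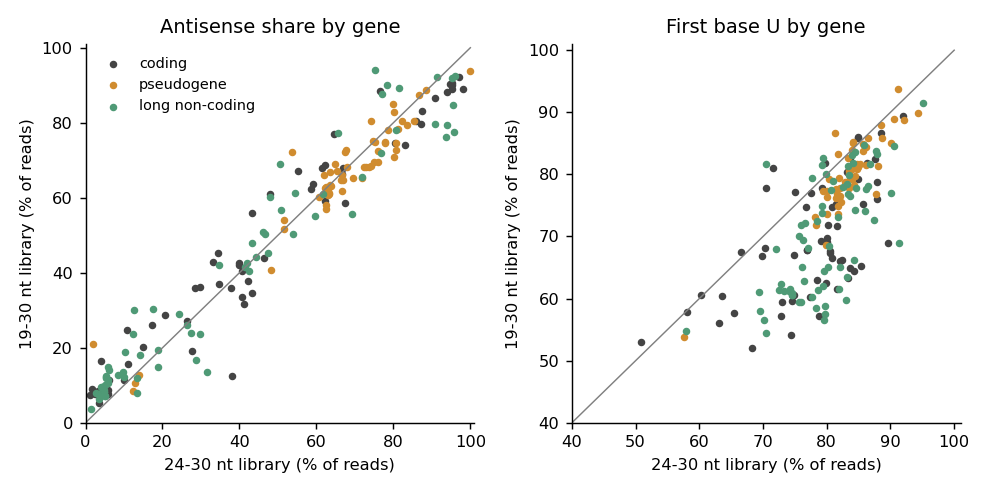
Antisense share (left) and share of reads with first base U (right, axes from 40%) of piRNA-like reads in 188 genes, with the 24-30 nt library on the x axis and the 19-30 nt library on the y axis, 1 point per gene, coloured by kind, and the line of equal values in grey. The antisense shares lie along the line (r of 0.973), and most U shares lie below it, with medians of 81.6% and 75.3%.

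D10Wsu102e, at chr10:83360221-83488505 on the plus strand, held the most piRNA-like reads in both libraries. It had 13173 weighted reads (22461 RPM) in the 24-30 nt library, against 1320 (47981 RPM) in the 19-30 nt library, a ratio of 0.468 (0.442 to 0.496), close to the median of 0.515 over all genes tested. Reads with 1 place numbered 7182 from 2438 starts, against 573 from 329 starts, and lay from base 83360327 to base 83483444. Their ratio was 0.588 (0.540 to 0.641). They were antisense in 12.8%, against 20.4%, and began with U in 78.8%, against 68.4%. Along the gene, the 5 kb from 55 kb after its start held 12% of these reads, against 18.3%, the 5 kb from 75 kb held 11.7%, against 25.1%, and the 5 kb from 105 kb held 8.99%, against 13.6%. In this last stretch antisense reads were the greater part, with 333 antisense and 313 sense, against 43 antisense and 35 sense. The single-place reads of the gene sized at 24 to 30 nt had a median of 26 nt, and 141 of 573 measured 24 nt. Its reads of 20 to 23 nt, outside the comparison, numbered 2117, of which 894 measured 22 nt.

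Other genes with many piRNA-like reads were Noct, with 2371 weighted reads, against 274, a ratio of 0.406 (0.359 to 0.462), and AC160336.1, with 2522, against 244, a ratio of 0.485 (0.425 to 0.555). Gm42860 had 2304, against 266, and Slc38a6 had 1862, against 210, with ratios of 0.407 and 0.415. Noct, a rhythmically expressed phosphatase gene, was read on the sense strand, with 9.92% antisense, against 11.5%, and Slc38a6, an amino acid transporter gene, on the antisense strand, with 90.9%, against 86.5%. Most of these reads had several places, since 300 and 50 of them had 1 place in Noct and Slc38a6 in the 24-30 nt library, against 33 and 16. Among reads with 1 place after D10Wsu102e came Gm17821 at chr12:67658527-67669276, with 502, against 22, all antisense in both, and U first in 94.4%, against 90.9%. Gm48418 had 401, against 5, a ratio of 3.76 (1.60 to 11.7), but over all its weighted reads it had 719, against 36.5, a ratio of 0.923 (0.662 to 1.32). The olfactory receptor gene Olfr1505 had 346, against 4, a ratio of 4.06 (1.57 to 15), all sense, and over all its reads a ratio of 2.32 (1.13 to 5.64). Gm44578 and Gm47611 had 259 and 166, against 40 and 30, and were 98.5% and 94% antisense, against 95% and 96.7%.

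Starts of piRNA-like reads on opposite strands overlapped most often by 10 bases in the 24-30 nt library. Among distinct starts with 1 place 152 pairs overlapped by 10 bases, against 9 for the 19-30 nt library. The other 19 overlaps from 1 to 20 bases had 13 to 57 pairs with a median of 35, against 2 to 10 with a median of 4. In the 24-30 nt library 10 bases thus had 4.34 times the median and more pairs than any other overlap, and in the 19-30 nt library 2.25 times the median, with 10 pairs at 8 bases. Over all places 42702 pairs overlapped by 10 bases, against 11499, which is 1.78 and 1.81 times the medians of the other overlaps, and there 10 bases led in both. Reads of repeated sequence pair with every copy, so these pairs are not independent.

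**Figure D5:**
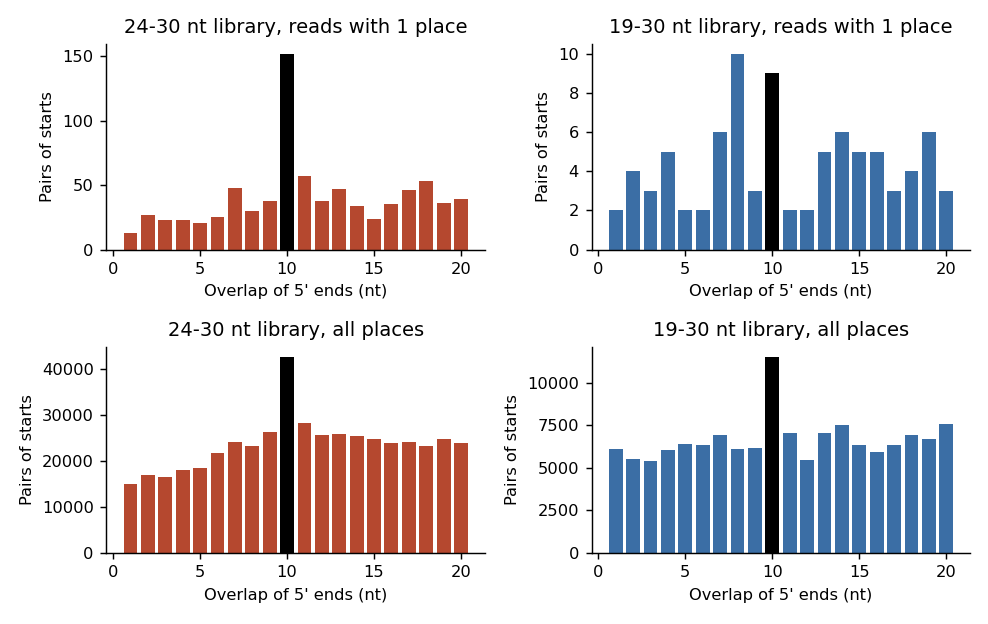
Pairs of piRNA-like starts on opposite strands by the overlap of their 5' ends, for reads with 1 place (top) and all places (bottom), in the 24-30 nt library (left) and the 19-30 nt library (right), with 10 bases in black and different y scales. At 10 bases the single-place panels show 152 and 9 pairs, and the panels of all places 42702 and 11499.

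Genes known to give endogenous siRNAs in mouse oocytes, which are cut by Dicer from double-stranded RNA and are of microRNA length, were low in the 24-30 nt library. The 8 listed genes had 15 reads with 1 place, against 144, each read counted once, although the 24-30 nt library was the deeper one. Kif4 and Pdzd11, which overlap on opposite strands of the X chromosome, had 3 and 1 reads, against 45 each, and share those reads. Optn had 5, against 65. The neighbouring pseudogenes Gm7162 and Gm16574, at chr17:12819819-12820842 and chr17:12818793-12819537, had 14 reads with 1 place each, against 234 and 97. In the 19-30 nt library the listed genes had 86 of 144 single-place long reads at 24 nt and 41 at 25 nt, and 1074 reads of 20 to 23 nt, of which 480 measured 22 nt. For Gm7162 and Gm16574 together the numbers were 220 of 331 at 24 nt and 2320 reads of 20 to 23 nt.

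Over all kinds of RNA, 476 genes had at least 100 long reads. Of these 62 were higher past 2-fold in the 24-30 nt library (13.0%) and 221 lower (46.4%), and with either direction 283 (59.5%), at a median ratio of 0.515. With RPM set on reads outside tRNA and rRNA, and genes of those classes left out, 63 of 434 were higher (14.5%) and 50 lower (11.5%). The number of lower genes thus depended on whether tRNA and rRNA were counted in the total. Counts below 3 were set to 3 for these calls. By class, 26 of 35 tRNAs and 6 of 7 rRNAs were higher and 0 lower, the added sequences and stretches of both classes included. Some of these were added after abundant unmatched reads had been seen. Both counts thus describe the RNAs listed and support nothing by themselves. Of 149 coding genes 3 were higher and 89 lower, of 88 pseudogenes 3 and 29, and of 127 long non-coding genes 1 and 80. The 7 higher ones were named after their values were seen: mt-Co1, mt-Nd5, Olfr1505, Gm12895, Gm12896, Gm13340 and Malat1. In the 24-30 nt library U was first in 98.4% of the reads of Olfr1505 and in 0.596% to 28.4% of those of the others. The mitochondrial genes mt-Co1 and mt-Nd5 had 284 and 148 weighted reads, against 2.33 and 1. These were antisense in 5.4% and 65.2% in the 24-30 nt library, so most mt-Nd5 reads were not of its mRNA strand. Gm12895 and Gm12896 shared their reads, with 251.5 each, against 0. Malat1, a nuclear long non-coding RNA, had 134, against 2.0, with an interval of its ratio from 0.853 to 26.1.

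Lists of mRNAs gave few long reads. Ribosomal protein genes and their copies had 297 weighted reads, against 31.7, a ratio of 0.439 (0.304 to 0.655). Oocyte mRNAs, of which 15 of 16 had reads, had 57.3, against 39.8, a ratio of 0.0675 (0.0443 to 0.104). Within this list Oog4 gave 6.20, against 36.5. Of the 28 single-place reads of Oog4 sized at 24 to 30 nt 18 measured 24 nt, and its reads of 20 to 23 nt numbered 263. Of 16 piRNA pathway mRNAs 3 had reads, 2.01 in sum, against 0. Of other cell types, blood microRNAs, 3 of 5 with reads, had 127 reads, against 0, nearly all from Mir451a, the red cell microRNA, with 123, against 0. With the 0 set to 3 counts the ratio of Mir451a was 1.92, and its interval began at 1.54. Blood mRNAs were at 0 in both. Granulosa and stroma microRNAs, all 12 with reads, had 352 reads, against 34, a ratio of 0.486 (0.341 to 0.712). Mir503 led with 170, against 5, a ratio of 1.59 (0.670 to 4.98), while Mir21a, with 31, against 25, a ratio of 0.0582 (0.0332 to 0.103), held most of the list's reads in the 19-30 nt library. Granulosa mRNAs, all 7 with reads, had 60.5 reads, against 0, with Inhba at 24 and Inha at 22, a level that the depth of the 19-30 nt library could not show. In bulk samples fewer cells of a type and less RNA per cell cannot be told apart, and the part of other cells in the differences was not tested.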

How the data were processed

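The deposited files hold single reads with a quality per base, which are other values than counts, not trimmed of the 3' linker, per the file contents. No aligner, build or filter of the authors is named in the labels or files used here. The planned unit of counts was replaced by counts of reads made here.

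Linkers were found with an overlap of at least 4 called bases in 26 nt and 6 in 36 nt reads, with up to 20% mismatches. A linker missed in a shorter insert leaves that read among those without one. Reads with an uncalled base in the first 20 (67967 in the 24-30 nt library, 62 in the other) or of low complexity (9678 and 171) were set aside, as were reads with more than 1000 places. The first 20 bases had to match 1 of 141767 GENCODE M21 transcripts (GRCm38) exactly, on either strand, since base 21 of the 24-30 nt reads often failed: in piRNA-like reads with 1 place it was that of the transcript in 43.7%, against 89.4% in the 19-30 nt library. No genome sequence was used, so "1 place" refers to annotated exons, and repeats could not be named. Added were 13 nuclear tRNA and 2 rRNA sequences written from general knowledge after abundant unmatched reads had been seen, 12 RefSeq tRNA genes lying in exons, and stretches of Yipf1, Lars2, AA474408 and chromosome 17 taken as tRNA or rRNA. Counts of tRNA and rRNA may therefore miss reads of sequences that were not included. They may also hold reads of other origin, since structural RNA was classed first and no strand was required within the RefSeq tRNA genes.

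Reads were classed in a fixed order: structural RNA on the sense strand first (microRNA, tRNA, rRNA, snoRNA, snRNA, other), next sense matches to coding genes, pseudogenes and lncRNAs, last antisense matches. A read was divided equally over its places, for structural RNA over those of its class. Genes with shared copies, such as the genes of 1 tRNA family or Vmn and Olfr genes, are uncertain. First bases by class are per read. Named genes were the 5 most frequent per class and library, the 10 highest and lowest ratios, the 10 largest differences in strand and in first base, and list members with at least 10 reads, of which the text gives a part. Gm17821, Gm48418, Gm7162, Gm16574, the starts shown and the genes higher against their class were chosen after their values were seen. The members and lists were chosen with earlier results of these data known.

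With 1 library a side no test was made. Shares have 95% Wilson, differences Newcombe and ratios conditional binomial intervals, and a count below 3 was set to 3 for calls past 2-fold. Functions were tested on simulated data. Used were Python 3.11.15, numpy 2.4.6, pandas 2.3.3, scipy 1.17.1, matplotlib 3.10.9. Alternatives were unique or all matches, distinct starts, 36 nt reads cut to 26 nt, inserts from 25 nt, the first 23 bases with up to 1 mismatch, usable reads as denominator and other minimums, and, chosen after seeing the data, inserts of 27 to 30 nt and starts found in both libraries.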

Additional observations from a re-analysis of the deposited data

Results flagged for a closer look

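The reads of the 19-30 nt library in which no linker was found lay outside the comparison, and they held a signal of their own: 4382 of the 5285 reads of the 5.8S rRNA among them started at base 124, the leading start of the 24-30 nt library, which had 144202 such reads. Among the 19-30 nt reads sized at 24 to 30 nt there was 1. Of all 40260 matched reads without a linker 60.7% (60.3 to 61.2) were piRNA-like, 15.3% (15 to 15.7) microRNA, 14.2% (13.8 to 14.5) rRNA and 8.85% (8.58 to 9.13) tRNA. As mature microRNAs are shorter than 30 nt, the lack of a linker did not mark long inserts alone.

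Among the unmatched reads the most frequent start of the 24-30 nt library had 34959 reads (2.57% of usable long reads, 2.54 to 2.59), against 233 in the 19-30 nt library (0.187%, 0.165 to 0.213), a ratio of 13.7 (12.1 to 15.7). Its 20 bases are those at the 5' end of the 2S rRNA of Drosophila, as written from general knowledge, an RNA that mice do not have. Its source was not tested.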

How the results depend on the processing

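No paired analysis was possible because there was 1 library a side. Ratios and differences run 24-30 nt over or minus 19-30 nt, and the causes of the changes were not tested.

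With reads of 1 place only, the ratios were 2.5 for tRNA, 4.89 for rRNA, 0.435 for snoRNA and 0.166 for piRNA-like reads. The differences were -5.08 points in first base U and -7.85 in antisense share, and of 117 genes tested 20 were higher and 47 lower. With every match counted in full the same 4 ratios were 14.5, 6.61, 1.83 and 0.936. The antisense difference was 1.33 points, and of 2767 genes tested 477 were higher and 750 lower. Over distinct starts the 4 ratios were 1.75, 2.78, 1.64 and 0.936, with -9.43 and -12.9 points, and of 31 genes tested 7 were higher and 0 lower. With 36 nt reads cut to 26 nt they were 4.81, 5.29, 2.27 and 0.462, with 9.58 and 2.31 points. With inserts of 25 to 30 nt they were 4.59, 9.09, 0.708 and 0.380, with 1.19 and -1.76 points. With the first 23 bases matched, tRNA was at 4.73, piRNA-like at 0.408 and the U difference at 4.06 points. With all usable reads below the line, the 4 ratios were 11.9, 21.5, 1.96 and 0.764.

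Among settings chosen after seeing the data, starts found in both libraries gave 8.60 for rRNA, 0.618 for snoRNA and 0.359 for piRNA-like reads, 6.12 and 2.34 points, and 33 of 359 genes higher. Inserts of 27 to 30 nt gave 3.47, 9.18, 0.531 and 0.375, -2.19 and -3.46 points, and 41 of 450 genes higher. Lower genes numbered 50 of 434 outside tRNA and rRNA, 699 of 1253 from 30 reads and 3172 of 3726 with no minimum. With no minimum, setting counts below 3 to 3 can by itself call a gene lower. Inha, with 22 reads, against 0, had a ratio of 0.344 in this way. The count with no minimum is therefore no result about genes. The ratios for tRNA and rRNA stayed above 1 and that for piRNA-like reads below 1 in all of these, while snoRNA and both differences took both signs. Depth limits the 19-30 nt library most: 3 reads are 5.12 RPM for 24-30 nt, against 109 RPM for 19-30 nt.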

Other observations

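The most frequent unmatched start of the 19-30 nt library had 26206 reads in the 24-30 nt library (1.93% of usable long reads), against 17579 in the 19-30 nt library (14.1%). It matched no annotated mouse transcript, and its sequence is not given. Unmatched reads began with G in 36.1%, against 59.0%.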
